A study of Mus musculus with 2 samples.

Results

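The genes described here encode the cytosolic translation initiation factors (eIFs) and elongation factors (eEFs), measured in hearts of mice with hypertrophic cardiomyopathy and of wild-type mice. They were taken by symbol, as entries whose name begins with Eif or Eef and a digit, without Eef1a1, Eef1a2 and the symbols that end in x or y. This gave 61 of 30385 listed entries. The MHC403 library came from MHC403/+ mice, which carry a human missense mutation in the myosin heavy chain, and the WT library from wild-type mice. Both genotypes were of the 129/SvEv strain, aged 8 to 16 weeks, and both had been injected under the skin with the calcineurin inhibitor cyclosporine A (CsA) at 15 mg/kg, 2 times a day for 2 weeks. RNA from hearts was read by 5′RNA-seq, a method on unfragmented polyA RNA whose reads gather at transcript starts. Hearts had been pooled before sequencing into 1 library per genotype, so nothing could be compared with the spread between animals and no p-value was computed. The number of animals in each pool was not given in the sources used here.

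Initiation begins when the ternary complex of eIF2, GTP and initiator tRNA joins the small ribosomal subunit with eIF1, eIF1A, eIF3 and eIF5. The mRNA is brought by eIF4F, which consists of the cap-binding protein eIF4E, the helicase eIF4A and the scaffold eIF4G. After the subunits join, eEF1 delivers aminoacyl-tRNAs and eEF2 moves the ribosome along the message. Control is exerted at a few steps. The 4E-BPs bind eIF4E and keep it from eIF4G until mTORC1 phosphorylates them, eIF2 kinases block the recycling of eIF2 by eIF2B, and eEF2 kinase inhibits eEF2. Heart growth is accompanied by a larger protein synthesis capacity, which makes these genes a subject of study in hypertrophy.

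Reads in entries summed to 5468677 in MHC403 and 5481123 in WT. Each ratio sets MHC403 over WT once both are scaled to these sums, and ranges in brackets are exact (Clopper-Pearson) 95% intervals that cover counting error only. Measured entries are those that reached 50 reads in 1 or both libraries. This held for 57 of the 61 genes and for 9507 entries in all, and 6 of the 57 reached it through the MHC403 library alone. Entries on the mitochondrial chromosome took 13.7% of MHC403 reads and 29.5% of WT reads, and the median log2 ratio of all measured entries was 0.57, or 1.48-fold. A ratio near 1.48 is therefore that of the middle entry in these libraries. The heart label was checked with 6 cardiomyocyte markers, which summed to 171302 reads in MHC403 and 247068 in WT. Of these Myh6 had 55171 reads in MHC403 against 132965 in WT and Actc1 30038 in MHC403 against 16307, and 2 intervals lay above 1 and 3 below. The liver markers Alb, Apoa1 and Ttr summed to 3 reads in MHC403 and 4 in WT. Reads are not per length, so levels are not compared between genes, only ratios.

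The starts of 5 genes are shown. They include the helicase paralogs that differed in opposite directions, the cap-binding protein gene, and 2 of the genes with a match close to the start. Each line gives the bases that precede an annotated RefSeq start on GRCm38.p6, on the gene's own strand, and capitals mark CACGTG, the E-box that proteins of the Myc and USF families bind.
Eif4a1, chr11:69672424-69672673, minus strand: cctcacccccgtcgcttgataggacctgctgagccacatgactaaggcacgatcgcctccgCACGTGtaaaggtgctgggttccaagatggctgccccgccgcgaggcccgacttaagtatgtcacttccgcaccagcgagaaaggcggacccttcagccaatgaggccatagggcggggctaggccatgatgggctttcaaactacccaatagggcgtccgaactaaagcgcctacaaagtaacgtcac
Eif4a2, chr16:23107218-23107467, plus strand: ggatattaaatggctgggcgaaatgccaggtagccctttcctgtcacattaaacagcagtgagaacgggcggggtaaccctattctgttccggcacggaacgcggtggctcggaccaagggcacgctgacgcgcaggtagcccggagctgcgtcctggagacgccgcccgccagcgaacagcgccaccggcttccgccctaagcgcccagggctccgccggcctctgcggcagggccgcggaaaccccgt
Eif4e, the second of its listed starts, chr3:138527018-138527267, plus strand: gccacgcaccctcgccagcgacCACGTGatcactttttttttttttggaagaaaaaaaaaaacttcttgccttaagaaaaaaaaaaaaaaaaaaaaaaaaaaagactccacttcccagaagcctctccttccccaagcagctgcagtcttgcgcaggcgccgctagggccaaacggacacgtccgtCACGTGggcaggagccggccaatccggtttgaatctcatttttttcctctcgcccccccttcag
Eef2, chr10:81176511-81176630, plus strand: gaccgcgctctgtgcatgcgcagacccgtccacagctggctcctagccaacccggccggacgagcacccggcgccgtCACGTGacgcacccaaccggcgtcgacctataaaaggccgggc
Eif4g1, chr16:20672607-20672726, plus strand: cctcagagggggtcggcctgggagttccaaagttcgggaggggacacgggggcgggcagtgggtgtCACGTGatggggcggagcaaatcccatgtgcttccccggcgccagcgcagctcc

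The letters CACGTG, which read the same on both strands, were looked for from 250 bases before to 50 after each RefSeq start. RefSeq starts were found for 47 of the 61 genes, and 12 of the 47 genes (25.5%) had a match at 1 or more of their starts. Of the 45 measured ones 11 (24.4%) had a match, against 12.7% of 7125 measured entries with a promoter in the same table. Over all genes of the table the share was 8.09%. Counted per promoter it was 22.2% of the 63 promoters of factor genes and 7.15% of all 32851. The first match lay 189 bases before the start in Eif4a1, 43 in Eef2, 54 in Eif4g1, 96 in Eif4h and 68 in Eif3f. It lay 24 bases before the start in Eif1b, 44 in Eif3k and 142 in Eif5a2, and after the start in Eif3a. Eef2k and Eif5a had matches at some of their listed starts only, the nearest 31 bases before in Eef2k and 74 in Eif5a. Eif4g1 had another match after its start. Eif4e held 2 matches at the start shown and none at its other listed start, and Eif4a2 had none in its window. The median log2 ratio was 0.67 for the 11 measured genes with a match and 0.46 for the 34 without, against 0.62 and 0.55 over all measured entries with and without one. The letters are a description of these windows and do not show that a factor bound there.

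Together the 61 genes took 68647 MHC403 reads and 47950 WT reads, which was 1.26% (1.25 to 1.26) of the MHC403 library and 0.875% (0.867 to 0.883) of the WT library. The summed ratio was 1.43 (1.42 to 1.45), where the same ratio over all entries is 1 by the scaling. It weights genes by their reads, so it is not set against the 1.48 of the middle entry. Eif1 alone made up 40.7% of the genes' reads in MHC403 and 47.6% in WT, and without it the share was 0.744% of the MHC403 library and 0.459% of the WT library.

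Most factor genes had more reads in the MHC403 library, at ratios close to those of measured entries in general. The log2 ratio was above 0 in 53 genes and below 0 in 4. The median of all measured entries was itself above 0, at 0.57, and their share above 0 was not counted. A 2-fold or higher excess in MHC403 was counted in 13 of 57 (22.8%), where the share of all measured entries was 26.1%. No factor gene was 2-fold or more lower, where the share of all measured entries was 2.43%. Of the 13, 4 had reached the read minimum in MHC403 alone. The counting interval lay wholly above 1 in 46 genes (80.7%) and wholly below 1 in 2, against 63.2% and 10.3% of all measured entries. That share depends on depth, and the median reads in the higher library were 336 for the factor genes and 162 for all measured entries. The median log2 ratio of the genes was 0.52, against 0.57 over all measured entries. Median-of-ratios scaling sets the middle entry near a ratio of 1 by taking 0.57 from each log2 ratio, and it left 26 genes above 0 and 31 below. Under it 4 genes were 2-fold or more higher and 2 lower, where 10.5% and 7.91% of all measured entries were. The 4 were Eif6, Eif4ebp1, Eif2ak3 and Eef1e1, and the 2 were Eif4a2 and Eif4e, so the direction given below for Eif4a2 and Eif4e is lower under both scalings.

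**Figure D1:**
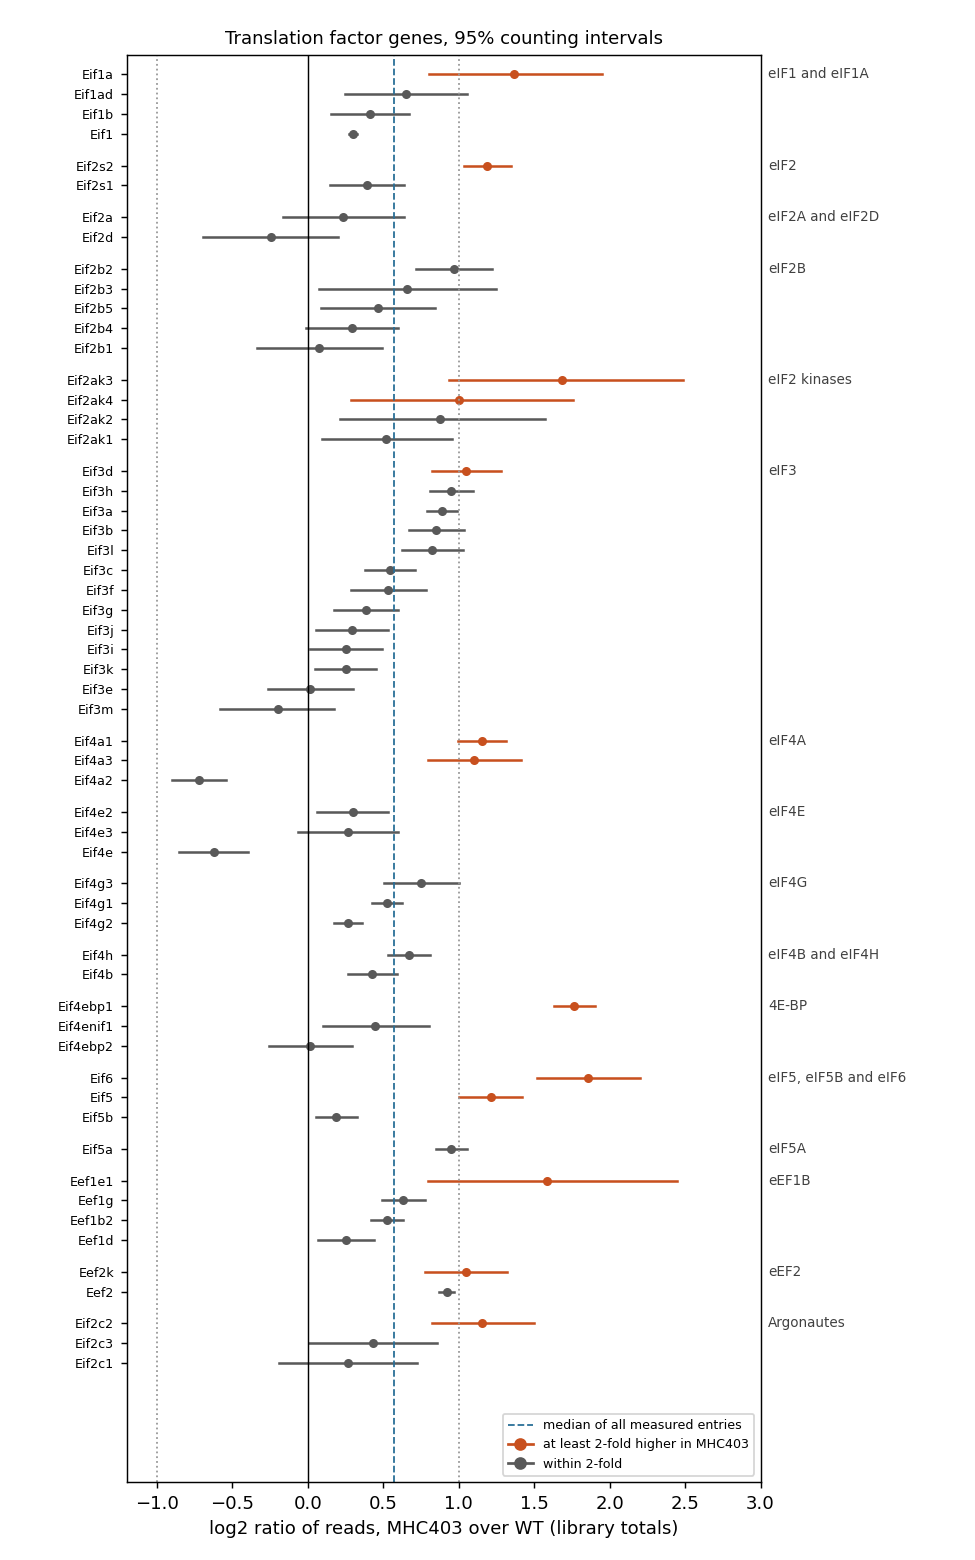
The log2 ratio of reads (MHC403 over WT, library totals) of each of the 57 measured translation factor genes, grouped by complex, with exact 95% counting intervals as bars. The solid line marks a ratio of 1, the dashed line the median of all measured entries (0.57) and the dotted lines 2-fold; 13 genes in orange lie at or beyond 2-fold higher, and Eif4a2 and Eif4e have intervals wholly below 1.

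**Figure D2:**
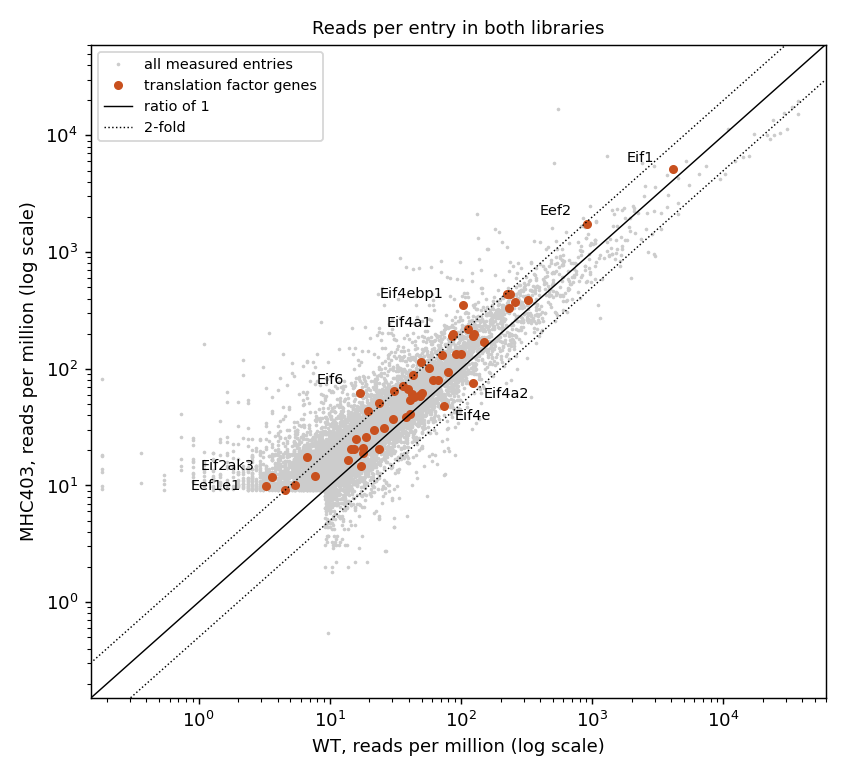
RPM (reads scaled to library totals) in the MHC403 library (vertical, log scale) against the WT library (horizontal, log scale) for all measured entries with reads in both libraries (grey) and for the translation factor genes (orange). The factor genes run through the middle of the grey cloud, with Eif4ebp1 and Eif6 above the 2-fold line and Eif4a2 and Eif4e below the line of equal reads.

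Among the factors that place the ribosome on the start codon, Eif1, which guards start codon choice, had 27965 reads in MHC403 against 22808 in WT, a ratio of 1.23 (1.21 to 1.25). Its paralog Eif1b had 296 reads in MHC403 against 223 in WT, 1.33-fold (1.11 to 1.59). Eif1a, the gene of the scanning factor eIF1A, had 95 reads in MHC403 against 37 in WT and was 2.57-fold (1.74 to 3.87) higher, having reached the read minimum in MHC403 only. Eif1ad, which encodes a protein with an eIF1A-like domain, had 136 against 87 in WT, 1.57-fold (1.19 to 2.07). All 4 intervals lay above 1, as did 63.2% of those of all measured entries, and Eif1 and Eif1b stood below the middle entry.

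The measured subunits of eIF2, the carrier of initiator tRNA, differed from each other. Eif2s2, the beta subunit gene (chromosome 2, 154697146 to 154718642, on mm9 like the gene positions below), had 1077 reads in MHC403 against 473 in WT and was 2.28-fold (2.05 to 2.55) higher. Eif2s1, the alpha subunit gene whose product is the target of the eIF2 kinases, had 314 in MHC403 against 240 in WT, 1.31-fold (1.10 to 1.56). For each Eif2s1 read there were 3.43 Eif2s2 reads in MHC403 and 1.97 in WT, which is 1.74-fold (1.42 to 2.14) more, a figure that no scaling of the libraries alters. Eif2a and Eif2d, single-chain proteins that can deliver initiator tRNA without eIF2, had intervals that spanned 1. Eif2a had 115 reads in MHC403 against 98 in WT, and Eif2d 80 against 95 in WT. The windows of Eif2a overlap those of Serp1, and those of Eif2d overlap Lgtn, an older name of the same gene that had 78 reads in MHC403 and 88 in WT.

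The 5 subunits of eIF2B, the exchange factor that reloads eIF2 with GTP, were all within 2-fold, as were 6793 of 9507 measured entries. The median log2 ratio of the 5 was 0.46 (-0.11 with median-of-ratios scaling). Eif2b2 (beta) had 388 reads in MHC403 against 199 in WT, 1.95-fold (1.64 to 2.33), and fell just short of 2-fold. Eif2b5, the catalytic epsilon subunit gene, had 143 in MHC403 against 104 in WT, 1.38-fold (1.06 to 1.79). Eif2b3 (gamma) had 66 against 42 in WT, Eif2b4 (delta) 204 against 167 and Eif2b1 (alpha) 103 against 98. The intervals of Eif2b4 and Eif2b1 spanned 1, so no difference was detectable for them at this depth.

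All 4 eIF2 kinases, which phosphorylate eIF2 alpha and thereby slow initiation, had intervals above 1, at low read numbers. So did 63.2% of all measured entries, and only the interval of Eif2ak3 lay wholly above the 1.48-fold of the middle entry. Eif2ak3 (PERK, the endoplasmic reticulum stress kinase; chromosome 6, 70794521 to 70855234) had 64 reads in MHC403 against 20 in WT and was 3.21-fold (1.92 to 5.60) higher. Eif2ak4 (GCN2, the amino acid sensor) had 50 against 25 in WT, 2.00-fold (1.22 to 3.38). Eif2ak2 (PKR, which senses double-stranded RNA) had 55 against 30 in WT, 1.84-fold (1.16 to 2.97), and Eif2ak1 (HRI, the haem-regulated kinase) 113 against 79 in WT, 1.43-fold (1.07 to 1.94). Summed, the kinases had 282 reads in MHC403 and 154 in WT, 1.84-fold (1.503 to 2.25). Eif2ak2, Eif2ak3 and Eif2ak4 reached 50 reads in the MHC403 library only, so they entered the measured set through the library in which they were higher. Of the phosphatase subunits that reverse the same mark, Ppp1r15a (GADD34, the stress-induced targeting subunit) had 757 reads in MHC403 against 172 in WT, 4.41-fold (3.73 to 5.24). Ppp1r15b, the constitutive one, had 178 against 75 in WT, 2.38-fold (1.81 to 3.16). Of the catalytic subunits, Ppp1cc at 1.46-fold (1.24 to 1.71) lay near the middle entry. Ppp1ca at 1.38-fold (1.30 to 1.46) and Ppp1cb at 1.20-fold (1.09 to 1.32) had intervals wholly under it. Ppp1r15a and Ppp1r15b were the genes past 2-fold among the 5 phosphatase genes measured, where 26.1% of all measured entries were 2-fold or more higher.

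The 13 subunits of eIF3, the scaffold on the small ribosomal subunit, were spread along a continuous range rather than around 1 value. Their log2 ratios ran from -0.20 to 1.05 with a median of 0.53 (-0.04 with median-of-ratios scaling). Of the intervals 11 lay above 1 and none below, and 1 gene passed 2-fold. Among all measured entries 63.2% had intervals above 1 and 10.3% below, and 26.1% were 2-fold or more higher. The summed reads were 8233 in MHC403 and 5163 in WT, a ratio of 1.60 (1.54 to 1.66). Eif3d, whose product can itself bind the mRNA cap, had 483 reads in MHC403 against 234 in WT, 2.07-fold (1.77 to 2.43). Eif3h had 1197 against 621 in WT, 1.93-fold (1.75 to 2.13), and Eif3a, the largest subunit, 2374 against 1284, 1.85-fold (1.73 to 1.98). Eif3b, another core subunit, had 711 against 395 in WT, 1.80-fold (1.59 to 2.05), and Eif3l 556 against 315, 1.77-fold (1.54 to 2.04).

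At the other end of the eIF3 range, Eif3e had 212 reads in MHC403 against 210 in WT, 1.01-fold (0.832 to 1.23). Eif3m had 112 against 129 in WT, 0.870-fold (0.669 to 1.13). These 2 subunits had intervals that spanned 1, and the upper bounds of both lay under the 1.48-fold of the middle entry. Between the ends, Eif3c stood at 1.46-fold (1.30 to 1.64), Eif3f at 1.45 (1.22 to 1.72) and Eif3g at 1.31 (1.13 to 1.51). Eif3j at 1.23 (1.04 to 1.45), Eif3i at 1.19 (1.01 to 1.41) and Eif3k at 1.19 (1.03 to 1.37) were lower in the order, with intervals that overlapped each other. Per Eif3e read there were 2.28 Eif3d reads in MHC403 and 1.11 in WT, 2.04-fold (1.59 to 2.64) more. The windows of Eif3a overlap those of the entry AK087340. Eif3e, Eif3m and Eif3j share 32.1%, 34.3% and 41.8% of the 36-base words of their first 200 transcript bases with transcripts of other genes, so their reads are uncertain.

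The subunits of eIF4F, the cap-binding complex, differed in opposite directions. Eif4a1 (chromosome 11, 69480438 to 69485925), the main eIF4A helicase gene, had 1035 reads in MHC403 against 467 in WT and was 2.22-fold (1.99 to 2.48) higher. Its paralog Eif4a2 (chromosome 16, 23107552 to 23114205) had 410 in MHC403 against 678 in WT and was 1.65-fold (1.46 to 1.87) lower. Per Eif4a2 read there were thus 2.52 Eif4a1 reads in MHC403 and 0.689 in WT, a 3.66-fold (3.10 to 4.33) difference that is free of library scaling. Eif4a3, which belongs to the exon junction complex rather than to eIF4F, had 278 against 130 in WT, 2.14-fold (1.73 to 2.66) higher. Eif4a1 shares 90.3% of the 36-base words of its first 200 bases with other transcripts, led by the pseudogene Eif4a-ps4, and Eif4a2 shares 5.80%. It was not stated in the sources used here how reads with several matches were counted. The Eif4a1 reads are therefore uncertain. Of the 61 genes 10 shared at least 25% of these words, among them Eif1ad and Eif4e3 at 100%, Eif2ak2 at 84.8%, Eif1 at 34.5% and Eif4e at 25.8%. Eif4a3 and the 3 eIF3 genes named above complete the 10. Words shared with copies elsewhere and with transcripts that overlap the gene at its own place were counted together. The 10 are therefore taken as uncertain, not necessarily in the same way.

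Eif4e, the cap-binding protein gene (chromosome 3, 138189155 to 138220563), had 264 reads in MHC403 against 408 in WT and was 1.54-fold (1.32 to 1.81) lower. It and Eif4a2 were the 2 measured factor genes with intervals wholly below 1, at percentiles 5.03 and 4.07 of the log2 ratios of all measured entries. Eif4e2 (4EHP, a cap-binding paralog that represses translation) had 336 against 274 in WT, 1.23-fold (1.04 to 1.45). Eif4e3, another paralog, had 169 against 141 in WT, 1.20-fold (0.955 to 1.51). Per Eif4e read there were 1.27 Eif4e2 reads in MHC403 and 0.672 in WT, 1.90-fold (1.51 to 2.38) more. The oocyte paralog Eif4e1b had 0 reads in both libraries, which allows levels of up to 0.549 RPM in MHC403 and 0.547 in WT.

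The scaffold and helicase cofactor genes were all within 2-fold, as were 6793 of 9507 measured entries. Eif4g1 had 2042 reads in MHC403 against 1425 in WT, 1.44-fold (1.34 to 1.54). Eif4g3 had 364 against 217 in WT, 1.68-fold (1.42 to 2.00), counted over 4 annotated starts together. Eif4g2 (DAP5), which lacks the eIF4E-binding region, had 2132 against 1778 in WT, 1.20-fold (1.13 to 1.28), below the middle entry. The intervals of Eif4g3 and Eif4g1 overlap, whereas that of Eif4g2 lay below both. Of the proteins that stimulate eIF4A, Eif4h stood at 1.59-fold (1.44 to 1.75) and Eif4b at 1.34-fold (1.20 to 1.503).

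Eif4ebp1 (4E-BP1, chromosome 8, 28370799 to 28386128) had the factor gene interval farthest from 1. It had 1919 reads in MHC403 against 565 in WT, 3.40-fold (3.10 to 3.75) higher, at percentile 92.0 of all measured entries. Its paralog Eif4ebp2 had 224 against 222 in WT, 1.01-fold (0.836 to 1.22), and Eif4ebp3 16 against 17, below the read minimum. The interval of Eif4ebp1 thus lay well apart from that of Eif4ebp2. Per Eif4ebp2 read there were 8.57 Eif4ebp1 reads in MHC403 and 2.55 in WT, 3.37-fold (2.72 to 4.17) more. Set against the protein it inhibits, there were 7.27 Eif4ebp1 reads per Eif4e read in MHC403 and 1.38 in WT, 5.25-fold (4.36 to 6.32) more. Eif4enif1 (4E-T), which carries eIF4E into the nucleus, had 162 against 119 in WT, 1.36-fold (1.07 to 1.74). These are reads, and neither the proteins nor the phosphorylation of 4E-BP1 were measured.

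**Figure D3:**
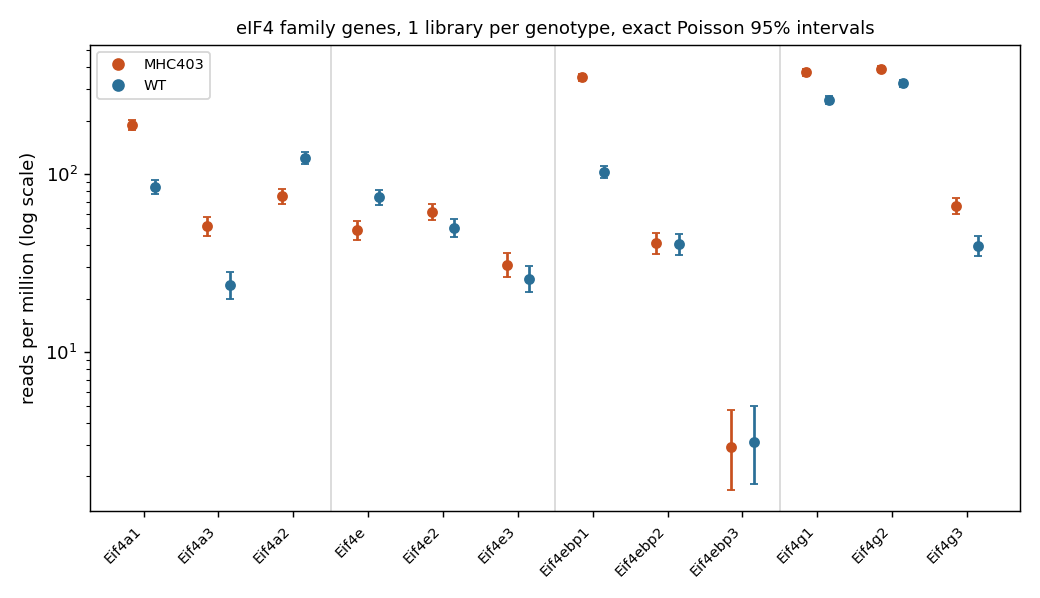
RPM (log scale) of 12 eIF4 family genes in the MHC403 library (orange, left of each pair) and the WT library (blue), with exact Poisson 95% intervals of the reads. Eif4a1, Eif4a3 and Eif4ebp1 lie higher in MHC403, Eif4a2 and Eif4e lie lower, and the intervals of Eif4ebp2, Eif4ebp3, Eif4e2 and Eif4e3 overlap between the libraries.

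The factors of late initiation held the gene with the highest ratio among those measured. Eif6 (chromosome 2, 155645573 to 155652661), which keeps the large ribosomal subunit from joining too early and acts in its biogenesis, had 336 reads in MHC403 against 93 in WT, 3.62-fold (2.87 to 4.61) higher. Eif5, the GTPase activator of eIF2, had 631 against 273 in WT, 2.32-fold (2.01 to 2.68), over 4 annotated starts. Eif5b, the GTPase of subunit joining, had 931 against 818 in WT, 1.14-fold (1.04 to 1.25), below the middle entry. Per Eif5b read there were 0.361 Eif6 reads in MHC403 and 0.114 in WT, 3.17-fold (2.46 to 4.11) more. Eif5a, whose hypusine-bearing product helps the ribosome through difficult sequences, had 2374 against 1230 in WT, 1.93-fold (1.80 to 2.07). Eif5a2, its rarer paralog, had 20 reads in MHC403 against 3 in WT, a ratio of 6.68 (1.98 to 35.1) that rests on too few reads to be counted as measured. The enzymes that make hypusine were Dhps at 1.32-fold (0.901 to 1.93) and Dohh at 1.33-fold (1.10 to 1.61). Both were within 2-fold, as were 6793 of 9507 measured entries.

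All 6 elongation factor genes had intervals above 1, as did 63.2% of all measured entries. They had a summed ratio of 1.75 (1.70 to 1.80) against 1.37 (1.36 to 1.39) for the initiation factor genes without the Argonautes. Each sum rests on 1 gene: the ratio was 1.48 (1.41 to 1.55) for elongation without Eef2 and 1.57 (1.54 to 1.60) for initiation without Eif1. These intervals overlap only at their ends, which does not show that the 2 ratios are equal. Both omissions were chosen after the values were seen. Eef2, the translocase, had 9431 reads in MHC403 against 4996 in WT, 1.89-fold (1.83 to 1.96), and made up most of these reads. Eef2k, its inhibitory kinase, had 350 against 170 in WT, 2.06-fold (1.71 to 2.49). No difference between kinase and target was detectable at this depth, with 0.0371 Eef2k reads per Eef2 read in MHC403 and 0.0340 in WT, a ratio of 1.09 (0.902 to 1.32). In the eEF1B exchange complex Eef1g (gamma) had 1048 against 677 in WT, 1.55-fold (1.41 to 1.71), and Eef1b2 (beta) 1830 against 1276, 1.44-fold (1.34 to 1.55). Eef1d (delta) had 516 against 434 in WT, 1.19-fold (1.05 to 1.36). Its interval overlaps that of Eef1b2 only at the upper end, which does not show that their ratios are equal. Eef1e1, which despite its name sits in the multi-tRNA synthetase complex (chromosome 13, 38737560 to 38750897), had 54 against 18 in WT, 3.01-fold (1.74 to 5.45), and reached the read minimum in MHC403 only.

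The entries Eif2c1 to Eif2c4 match the symbol rule but encode the Argonaute proteins of RNA interference, under older names. Eif2c2 (Ago2, the slicing Argonaute) had 240 reads in MHC403 against 108 in WT, 2.23-fold (1.77 to 2.82). Eif2c3 had 113 against 84 in WT, 1.35-fold (1.01 to 1.81), with windows that overlap the entry meif2C3, and Eif2c1 91 against 76, 1.20-fold (0.875 to 1.65). Eif2c4 had 12 against 32 in WT and was not measured, though its interval lay below 1 at 2.66-fold (1.33 to 5.67) lower. Leaving these entries out gave 12 genes past 2-fold among 54, all 12 higher, where 26.1% of all measured entries were 2-fold or more higher.

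The genes nearest to the 2-fold line on its lower side were Eif2b2 at 1.95, Eif5a at 1.93, Eif3h at 1.93 and Eef2 at 1.89, and just beyond it Eif2ak4 at 2.00, Eef2k at 2.06, Eif3d at 2.07 and Eif4a3 at 2.14. All 8 intervals except that of Eef2 (1.83 to 1.96) cross 2-fold. A deposited start-site score above 0, of unstated formula, was listed in the authors' deposited table for 19 of the 56 factor genes that had 20 or more reads in each library (33.9%), against 34.7% of all such entries. Among them the authors' deposited table gave its highest scores to Eif4g3 and Eif4a1, and 16 of the 61 genes had 2 or more annotated starts whose reads were counted together.

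The regulators and partners of these factors did not form 1 pattern. Of 13 measured genes of the mTORC1 pathway, which phosphorylates the 4E-BPs, 2 lay past 2-fold, both higher, and the median log2 ratio was 0.51. By comparison, 26.1% of all measured entries were 2-fold or more higher, and their median was 0.57. Of the 13 intervals 10 lay above 1 and 1 below, where 63.2% and 10.3% of those of all measured entries did. Ddit4 (REDD1), an inhibitor of mTORC1, had 1174 reads in MHC403 against 403 in WT, 2.92-fold (2.61 to 3.28), and the kinase gene Mtor itself 245 against 117, 2.10-fold (1.68 to 2.64). Larp1, which binds messages with a terminal oligopyrimidine tract, stood at 1.71-fold (1.495 to 1.95). The interval below 1 was that of Sesn1, a sensor upstream of mTORC1. Sesn1 had 303 reads in MHC403 against 457 in WT and was 1.505-fold (1.30 to 1.75) lower. Rheb, the activating GTPase, stood at 1.84-fold (1.48 to 2.30). Of the kinases that phosphorylate eIF4E, Mknk2 had 1392 against 1114 in WT, 1.25-fold (1.16 to 1.36), and Mknk1 84 against 66, 1.28-fold (0.913 to 1.79).

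Pabpc1, the poly(A)-binding protein that contacts eIF4G, had 1073 reads in MHC403 against 546 in WT, 1.97-fold (1.78 to 2.19), whereas Pabpc4 had 1285 against 1321 in WT, 0.975-fold (0.902 to 1.05). Of 6 measured genes of that list none passed 2-fold, Pabpn1 stood at 1.86-fold (1.64 to 2.11), and Paip1, a coactivator, was 1.33-fold (1.05 to 1.69) lower. For this list and those that follow, 26.1% of all measured entries were 2-fold or more higher and 2.43% lower. Of 9 measured genes of termination and recycling none passed 2-fold, and their median log2 ratio was 0.32. The 9 include Lgtn, the older name of Eif2d, and without it the median of the 8 others was 0.38. Gspt1 (eRF3a) had the interval farthest from 1 there, at 1.68-fold (1.42 to 2.00), with Pelo at 1.79 (1.24 to 2.62), Mcts2 at 1.71 (1.10 to 2.69) and Etf1 (eRF1) at 1.20 (1.07 to 1.36). Of 5 measured hypusine and diphthamide enzymes 1 passed 2-fold, Dph5 at 2.07-fold (1.34 to 3.23), and Dph3 stood at 1.37-fold (1.14 to 1.64). With median-of-ratios scaling the medians of all 6 of these lists, the phosphatase list included, were below 0, between -0.55 and -0.03.

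The factors that translate mitochondrial messages had lower ratios. Of 7 measured none had an interval above 1 and 5 had intervals below 1, where 63.2% and 10.3% of all measured entries did. Their median log2 ratio was -0.37, against 0.52 for the cytosolic factor genes and 0.57 for all measured entries. Tufm, the mitochondrial counterpart of eEF1A, had 295 reads in MHC403 against 526 in WT and was 1.78-fold (1.54 to 2.06) lower. Mtif2, a mitochondrial initiation factor, had 64 against 116 in WT, 1.81-fold (1.32 to 2.49) lower, and the elongation factors Gfm2 and Gfm1 were 1.58-fold (1.28 to 1.95) and 1.22-fold (1.03 to 1.44) lower. With median-of-ratios scaling their median log2 ratio was -0.93 and that of the cytosolic factor genes -0.05.

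**Figure D4:**
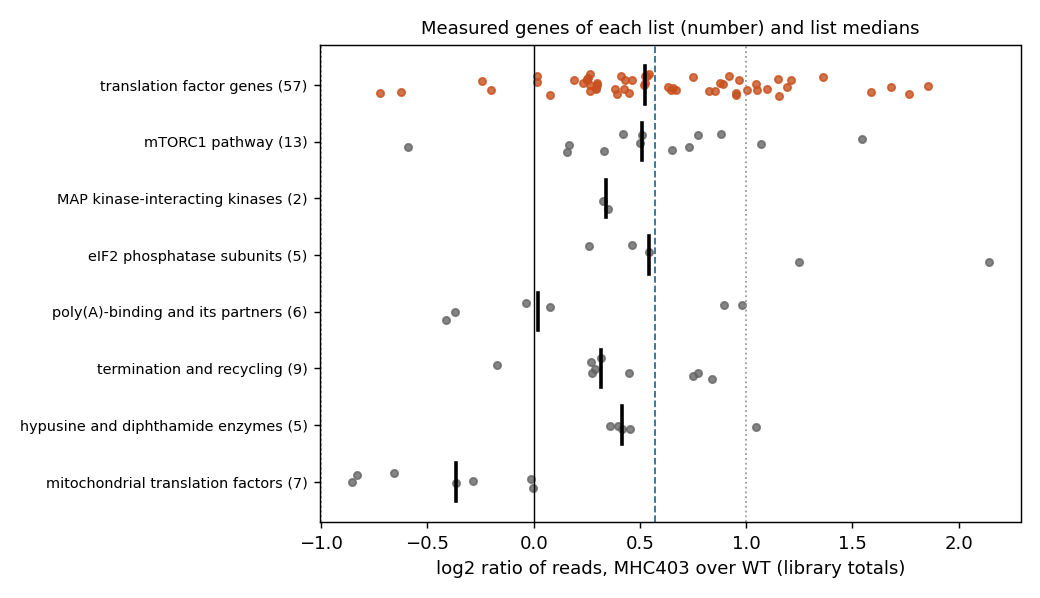
The log2 ratio of reads (MHC403 over WT, library totals) of each measured gene (points) for the translation factor genes in orange and the 7 related lists in grey, with list medians as black bars and the number of genes in brackets. The dashed line is the median of all measured entries (0.57), the dotted lines mark 2-fold, and the mitochondrial translation factors lie at or below 0 while the other lists have medians above 0 on this scale.

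Markers of cell types differed between the libraries beside these genes, cardiomyocyte markers among them (above). All 6 fibroblast markers had intervals above 1, as did 63.2% of all measured entries. The fibroblast markers had 9512 summed reads in MHC403 and 2084 in WT, 4.57-fold (4.36 to 4.80). That sum leans on Col1a1, with 4914 reads in MHC403 against 188 in WT, and Postn, with 1103 against 19. Lum stood at 3.51-fold, Pdgfra at 2.25-fold, and Dcn and Tcf21 at 1.79-fold each. The 6 macrophage markers, 5 of them measured, summed to 1541 in MHC403 and 489 in WT, 3.16-fold (2.85 to 3.50). The 6 endothelial markers summed to 2378 in MHC403 and 1950 in WT, 1.22-fold (1.15 to 1.30). Among these Pecam1 stood at 1.84-fold (1.59 to 2.12), whereas Kdr was 1.399-fold (1.16 to 1.70) lower. The skeletal muscle markers Myh1 and Myh4 had 80 and 132 reads in MHC403 against 288 and 393 in WT, and the third of that list, Actn3, had 18 in MHC403 against 15 in WT. Translation factors are made in every cell type, and the part of these cells in the ratios above was not tested. In pooled hearts more cells of a type and more RNA per cell cannot be told apart.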

How the data were processed

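Per the labels' protocols, polyA RNA of pooled hearts was sequenced without fragmentation, after size selection and linear amplification. Per the submitters' processing notes, TopHat 1.0.14 and mm9 were used; the counting program and strand handling were not given in the sources used here. Per the file headers, the authors deposited raw read counts per entry, normalized reads, a fold, a p-value and a start-site score. The deposited normalized reads equal RPM over all entries, and the deposited fold is the ratio MHC403 over WT, which differed from the ratio computed here by at most 4.998e-10 in these genes. The deposited p-value, of unstated test, was not used, and the deposited score served only to count genes above 0 and to name the highest.

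The table's position suffix was dropped from symbols, so Eif1ax entries fall under the rule on x and y. With 1 library per genotype no count model could be fitted. Log2 ratios of counts scaled to totals were computed with exact conditional intervals (Python 3.11.15, scipy 1.17.1), and TMM factors with edgeR 4.0.16. Ratios between 2 genes within a library carry exact conditional odds ratio intervals; their 11 pairs were chosen after the values were seen. At 50 reads in each library the interval of a ratio of 1 runs from 0.662 to 1.51. A library at 0 reads has a floor of 3 counts. Amplified reads without molecular identifiers are not independent molecules, and intervals leave out animal-to-animal variation. Interval code was tested on simulated data. The genes and lists were chosen with earlier results of these data known. Values are given for up to 6 genes per complex with intervals farthest from 1, all genes past 2-fold and all of the small classes. Up to 4 genes are given per related list. The further eIF3 genes were added so that every gene is accounted for, and Ppp1cb and Sesn1 were added beyond the 4 of their lists. Positions are 1-based on mm9, with the table's starts read as counted from 0. Promoters were matched to RefSeq (GRCm38.p6) by symbol or synonym, and shared 36-base words were counted against GENCODE M21 transcripts on both strands. Alternatives were other scalings, read minimums and thresholds, and leaving out overlapping or Argonaute entries; leaving out Eif1, Eef2 or Lgtn was added after seeing the data. 1 of the marker lists is not reported here.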

Additional observations from a re-analysis of the deposited data

How the results depend on the processing

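Scaling decided the direction of the group as a whole. The median log2 ratio of the 57 measured genes was 0.52 with library totals, 0.23 with totals that leave out mitochondrial entries, -0.045 with median-of-ratios scaling and -0.022 with TMM scaling. Genes at least 2-fold higher numbered 13 with totals, 5 without mitochondrial entries in the totals, and 4 with both median-of-ratios and TMM scaling; those at least 2-fold lower numbered 0, 1, 2 and 2 in the same order. A 1.5-fold threshold gave 26 higher and 2 lower, where the middle of all measured entries was itself at 1.48-fold. Shares of all measured entries were counted at 2-fold with totals and median-of-ratios scaling (above), not for the other settings. A minimum of 20 reads, or of 1 read in each library, gave 1 lower gene, since Eif2c4 then enters. All 4 of Eif6, Eif4ebp1, Eif2ak3 and Eef1e1 stayed at least 2-fold higher under median-of-ratios scaling. The median, and the count of higher genes, moved by less than the interval of the median or 1.5 times when entries with overlapping windows, Argonaute genes or genes under 200 reads were left out, and with the lower read minimums. Low reads limit Eif1a, Eif2b3, Eif2ak2, Eif2ak3, Eif2ak4, Eef1e1 and Eif5a2. No paired analysis was possible because each genotype had 1 library.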
